A study of Mus musculus with 12 samples.

Results

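Iron and metal handling genes were examined as a set of 10 named genes among the 53465 entries of the gene table, chosen by symbol. All 10 were present and all 10 passed the filter on low values. They encode membrane transporters (Slc11a1, Slc11a2, Slc39a14, Slc40a1) and the transferrin receptor (Tfrc), the ferritin chains (Fth1, Ftl1), the iron hormone hepcidin (Hamp) and the metallothioneins (Mt1, Mt2). Mice of strain C57BL/6, aged 10 weeks after birth, gave the peritoneal macrophages, the phagocytes that line and patrol the belly cavity. The 12 bulk RNA-seq libraries form 4 groups of 3: genotype Lyz2Cre-BHLHE40-Fl with LPS, genotype Lyz2Cre with LPS, genotype Lyz2Cre-BHLHE40-Fl without LPS and genotype Lyz2Cre without LPS. LPS, lipopolysaccharide, is the bacterial cell wall lipid that macrophages sense through the receptor TLR4; no source used here gives its dose or its time. All 4 groups carry Lyz2Cre, which puts Cre recombinase under the control of the lysozyme 2 gene, expressed in myeloid cells such as macrophages and neutrophils. The transcription factor BHLHE40 is named with Fl in the label of 2 of the groups.

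Macrophages recycle iron from old red blood cells and also withhold iron from microbes. Iron enters through the transferrin receptor and through metal transporters, is stored in ferritin shells, and leaves through ferroportin, the product of Slc40a1, which hepcidin marks for degradation. Much of this control acts on RNA after it is made: iron regulatory proteins bind a short hairpin, the iron-responsive element, and block translation when it lies in a 5′ UTR or stabilise the RNA when it lies in a 3′ UTR. RNA levels of the ferritins, ferroportin and the transferrin receptor therefore do not give their protein levels.

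The hairpin was searched for in the transcripts of the 10 genes, because it groups them by a feature that no RNA level was used to find. The pattern was a C, then 5 bases, the loop CAGTGN, and 5 bases that pair with the first 5, G with T allowed, on the transcript strand. It was found in 4 of the 10 genes, in the 5′ UTR of Fth1, Ftl1 and Slc40a1 and 4 times in the 3′ UTR of Tfrc. Only 1 transcript per gene was searched, the shortest with a CCDS tag. A hairpin in another transcript, or with a mismatch in the 5 pairs, would be missed. The lack of a match, as in Slc11a2, therefore does not show that a gene has no such element. In the mouse annotation 231 of 20326 genes, or 1.14%, held a match in the transcript searched. Each site below is given 5′ to 3′ on the gene's strand as DNA of GRCm38 (mm10) with the loop in capitals, and a match is a description of letters.
Fth1, 5′ UTR, chr19:9982732-9982760, plus strand: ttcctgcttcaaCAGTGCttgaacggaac
Ftl1, 5′ UTR, chr7:45459779-45459807, minus strand: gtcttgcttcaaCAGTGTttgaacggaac
Slc40a1, 5′ UTR, chr1:45925465-45925493, minus strand: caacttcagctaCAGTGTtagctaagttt
Tfrc, 3′ UTR, chr16:32631219-32631247, plus strand: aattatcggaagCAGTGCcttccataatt
Tfrc, 3′ UTR, chr16:32631598-32631626, plus strand: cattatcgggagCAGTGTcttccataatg
Tfrc, 3′ UTR, chr16:32631663-32631691, plus strand: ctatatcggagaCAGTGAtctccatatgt
Tfrc, 3′ UTR, chr16:32631710-32631738, plus strand: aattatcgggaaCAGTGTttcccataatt
The Fth1 and Ftl1 sites have the same 5 paired bases on each side of the loop, and differ in the last loop base and in some bases on the 5′ side of the pattern.

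Each library held between 20489415 and 29354869 reads assigned to genes, and the deposited values are these reads over a library factor, so that 1 read was worth 0.725 to 1.56. Nothing in the labels tells whether replicates came from separate mice or cultures, and the p-values then cover only the spread between these samples. Bhlhe40 RNA was not lower in controls labelled Lyz2Cre-BHLHE40-Fl, at 7893 ± 239 against 4976 ± 295 in Lyz2Cre controls, and was 2232 ± 244 against 2467 ± 226 with LPS (SD, n = 3 each). A value for the whole gene does not check the loss of single exons. For this reason the libraries are named by their label, BHLHE40-Fl-labelled, and directions between genotypes go by the label. RNA of Lyz2, the lysozyme 2 gene, stood at 170 ± 31.5 in BHLHE40-Fl-labelled controls, against 766 ± 69.8 in Lyz2Cre controls. With LPS it stood at 769 ± 67.9 against 970 ± 56.2 (SD, n = 3 each). In the order BHLHE40-Fl-labelled with LPS, Lyz2Cre with LPS, BHLHE40-Fl-labelled controls and Lyz2Cre controls, the summed level of 9 macrophage markers was 126882 to 130545, 219002 to 231701, 123391 to 136252 and 192265 to 200986. That of 8 large peritoneal macrophage markers went the other way between labels, at 608.6 to 785.1, 505.4 to 583.6, 665.4 to 727.5 and 546.8 to 598.2. The summed level of 12 mesothelial and stromal markers was 9636.5 to 12878, 2919 to 4095, 9002 to 11671 and 1738.5 to 1863. None of those 12 was at 0 in all 3 libraries of either BHLHE40-Fl-labelled group, while 3 were in each Lyz2Cre group, and Upk3b was at 0 in both. In bulk RNA, fewer cells of a type and less RNA per cell cannot be told apart. The part of the marker differences in the values below was not tested. When every library was scaled to the same total, the median log2 change over all genes became -0.56 for LPS in BHLHE40-Fl-labelled libraries, against -0.05 as deposited, and -0.57 for LPS in Lyz2Cre libraries, against 0 as deposited. Between genotypes the median then became 0.22 with LPS and 0.17 without.

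**Figure D1:**
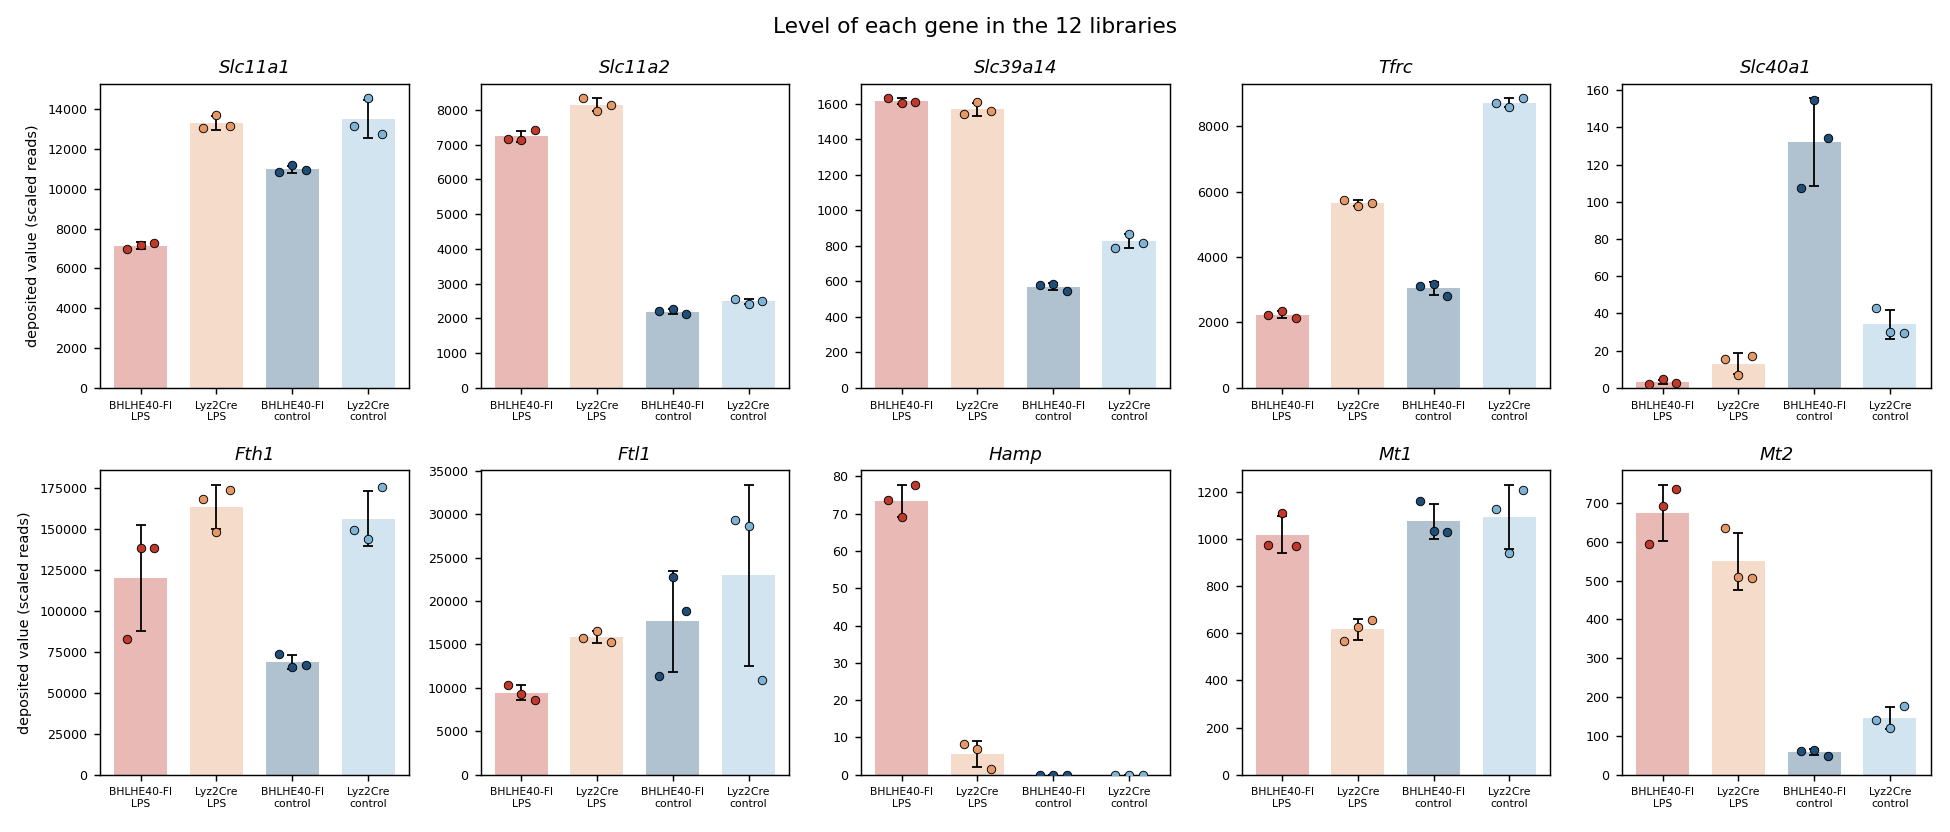
Deposited value (reads divided by a library factor, linear axis from 0) of each of the 10 genes in BHLHE40-Fl-labelled and Lyz2Cre libraries with LPS and in controls. Points are libraries, bars are means and error bars are SD over 3 libraries. Tfrc was lower in all 6 BHLHE40-Fl-labelled libraries than in any Lyz2Cre library, and Hamp was at 0 in all 6 controls.

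Per kilobase of the shortest annotated protein-coding transcript, the ferritin genes stood highest in all 4 groups. Fth1 averaged 129137 ± 34595 deposited units per kilobase in BHLHE40-Fl-labelled libraries with LPS, 175663 ± 14643 in Lyz2Cre with LPS, 73837 ± 4681 in BHLHE40-Fl-labelled controls and 168109 ± 18032 in Lyz2Cre controls (SD, n = 3 each). Ftl1 came next with 9734 ± 899.8, 16380.3 ± 664, 18242 ± 5983 and 23724 ± 10764 in the same order, and Slc11a1 stood at rank 3 in every group with means from 3089 to 5828. Slc40a1 and Hamp filled the last 2 ranks in every group. Slc40a1 averaged 0.930 deposited units per kilobase in BHLHE40-Fl-labelled libraries with LPS and 39.2 in BHLHE40-Fl-labelled controls.

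The effect of LPS was tested first, with a limma model over 20419 genes. In BHLHE40-Fl-labelled libraries 5 of the 10 genes rose and 4 fell, where 24.9% and 25.6% of all tested genes did and 50.5% were called in either direction. In Lyz2Cre libraries 4 rose and 3 fell, against 25.0% and 23.9% of all genes, and 48.9% in all. The median log2 change of the 10 genes was 0.35 in BHLHE40-Fl-labelled libraries and 0.02 in Lyz2Cre libraries, and that of all genes was -0.05 and 0. Slc11a2, Slc39a14, Hamp and Mt2 rose with LPS under both labels, and Tfrc and Slc40a1 fell under both. With equal library totals 4 rose and 5 fell in BHLHE40-Fl-labelled libraries, where 12.6% and 46.1% of all genes did, and 4 rose and 6 fell in Lyz2Cre libraries, where 11.5% and 45.8% did, and 58.8% and 57.3% of all genes were called in either direction.

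Between genotype labels, more of the 10 genes were called lower than higher under the BHLHE40-Fl label, except with LPS once library totals were made equal. With LPS, 2 of the 10 were higher and 6 lower under that label, against 17.7% and 19.8% of all tested genes and 37.4% in either direction. In controls 1 was higher and 6 lower, against 15% and 16.6% of all genes and 31.6% in either direction. The median log2 difference of the 10 genes was -0.33 with LPS and -0.30 in controls, where all genes had -0.02 and 0.00. With equal library totals these counts became 4 higher and 3 lower with LPS, against 29.9% and 10.8% of all genes, and 1 higher and 4 lower in controls, against 24.6% and 12.2%, where 40.7% and 36.8% of all genes were called in either direction. The 6 lower with LPS became 3 without Lyz2Cre LPS replicate 1 or 3, and 4 without BHLHE40-Fl LPS replicate 1 or 2. The 4 comparisons share groups of libraries, so their counts are not separate evidence.

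**Figure D2:**
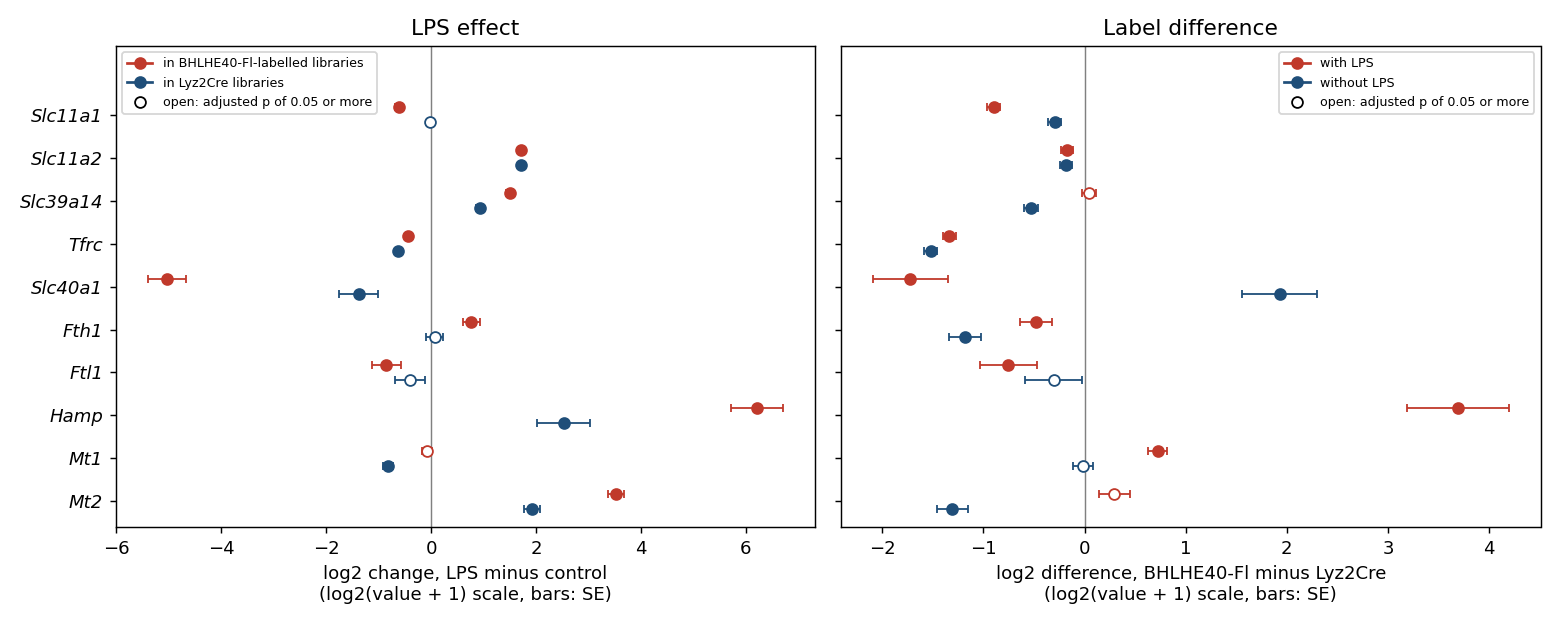
Log2 changes with LPS (left, BHLHE40-Fl-labelled in red, Lyz2Cre in blue) and log2 differences of BHLHE40-Fl-labelled minus Lyz2Cre libraries (right, with LPS in red, without in blue), on the log2(value + 1) scale with SE from limma. Filled points have an adjusted p below 0.05, and Hamp has no point without LPS because it was at 0 in all 6 controls. Slc40a1 lies at 1.93 without LPS and at -1.72 with LPS on the right.

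Tfrc was lower under the BHLHE40-Fl label in both treatments. The transferrin receptor takes up iron bound to transferrin by endocytosis. Its gene (ENSMUSG00000022797, chr16:32608920-32632794 in mm10, plus strand, 19 exons in the transcript used) stood at 2225, 2357 and 2134 in BHLHE40-Fl-labelled libraries with LPS, against 5737, 5568 and 5657 in Lyz2Cre with LPS. Without LPS it stood at 3129, 3180.1 and 2812 in BHLHE40-Fl-labelled controls, against 8723, 8587 and 8856 in Lyz2Cre controls. The 4 groups did not overlap, and the lowest Lyz2Cre library lay above the highest BHLHE40-Fl-labelled library in both treatments. BHLHE40-Fl-labelled libraries had 2.53-fold less Tfrc RNA with LPS (log2 difference -1.34 ± 0.06 SE, limma adjusted p = 2.67e-11) and 2.87-fold less without (-1.52 ± 0.06, limma adjusted p = 3.01e-12). LPS lowered it by a log2 change of -0.44 in BHLHE40-Fl-labelled libraries (limma adjusted p = 1.37e-05) and -0.63 in Lyz2Cre libraries (limma adjusted p = 1.89e-07). The change with LPS did not pass the test of a difference between labels (0.18 ± 0.09 SE, limma adjusted p = 0.189), but it did with equal library totals (0.29, limma adjusted p = 0.0272) and with a correction for base composition (0.26, limma adjusted p = 0.0442). The summed macrophage markers were also lower in BHLHE40-Fl-labelled libraries, at 126882 to 130545 against 219002 to 231701 with LPS and 123391 to 136252 against 192265 to 200986 in controls. The summed large peritoneal macrophage markers were higher there, at 608.6 to 785.1 against 505.4 to 583.6 with LPS and 665.4 to 727.5 against 546.8 to 598.2 in controls. The part of either sum in the Tfrc values was not tested.

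Slc11a1 fell with LPS in BHLHE40-Fl-labelled libraries, a change that differed from that in Lyz2Cre libraries. Its product, NRAMP1, pumps divalent metals out of the phagosome, and C57BL/6 mice carry a loss-of-function allele of the gene. The gene (ENSMUSG00000026177, chr1:74375195-74386062, plus strand) stood at 6989, 7167 and 7299.5 in BHLHE40-Fl-labelled libraries with LPS, against 10835, 11193 and 10925 in their controls. In Lyz2Cre libraries it stood at 13060.2, 13724 and 13186 with LPS, against 13172, 14562 and 12740.4 in controls. The 6 Lyz2Cre values overlapped between treatments and all lay above the 6 BHLHE40-Fl-labelled values, which did not overlap between treatments. LPS lowered Slc11a1 by a log2 change of -0.62 ± 0.06 SE in BHLHE40-Fl-labelled libraries (limma adjusted p = 1.93e-07). The change in Lyz2Cre libraries was -0.02 (limma adjusted p = 0.873). The difference between these changes was -0.60 ± 0.09 SE (limma adjusted p = 9.67e-05). Between labels it was 1.86-fold lower in LPS libraries labelled BHLHE40-Fl (limma adjusted p = 4.53e-09) and 1.23-fold lower without (limma adjusted p = 0.00148). With equal library totals the change with LPS in Lyz2Cre libraries became -0.74 (limma adjusted p = 1.12e-08), and the difference in controls lost its call (-0.12, limma adjusted p = 0.168).

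Slc11a2 rose by nearly the same amount under both labels. Its product, DMT1, moves ferrous iron across the endosomal membrane after transferrin has released it. The gene (ENSMUSG00000023030, chr15:100387898-100425072, minus strand) stood at 7166, 7131 and 7405 with LPS in BHLHE40-Fl-labelled libraries, against 2201, 2259 and 2117 in their controls. In Lyz2Cre libraries it stood at 8336, 7978 and 8131 with LPS, against 2554, 2424 and 2496.5 in controls. All 6 libraries with LPS were above all 6 controls. The increase was 3.30-fold (log2 1.72 ± 0.06 SE, limma adjusted p = 2.76e-14) in BHLHE40-Fl-labelled libraries and 3.27-fold (log2 1.71 ± 0.06, limma adjusted p = 4.72e-14) in Lyz2Cre libraries. The difference between the changes was 0.01 ± 0.08 SE (limma adjusted p = 0.941), which does not show that they were equal. Slc11a2 was 1.13-fold lower in LPS libraries labelled BHLHE40-Fl (limma adjusted p = 0.026) and 1.14-fold lower without (limma adjusted p = 0.0201). Equal library totals ended both of these genotype calls, with log2 differences of 0.11 and -0.01. The call with LPS was also lost with edgeR (adjusted p = 0.129), and without BHLHE40-Fl LPS replicate 2, Lyz2Cre LPS replicate 1 and Lyz2Cre LPS replicate 3 in turn (limma adjusted p = 0.0771, 0.087 and 0.0606). The call in controls was lost without BHLHE40-Fl control replicate 3 or Lyz2Cre control replicate 1 (limma adjusted p = 0.0917 and 0.0712).

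Slc39a14 reached the same range with LPS under both labels and started lower in BHLHE40-Fl-labelled controls. Its product, ZIP14, imports zinc, manganese and iron not bound to transferrin. The gene (ENSMUSG00000022094, chr14:70303469-70351425, minus strand) stood at 1633, 1605 and 1610.4 in BHLHE40-Fl-labelled libraries with LPS, against 582, 584 and 546 in their controls. In Lyz2Cre libraries it stood at 1541, 1611 and 1560 with LPS, against 789.8, 868 and 818 in controls. The libraries with LPS overlapped between labels, and the controls did not. LPS raised it 2.83-fold in BHLHE40-Fl-labelled libraries (log2 1.5 ± 0.07 SE, limma adjusted p = 1.76e-12) and 1.90-fold in Lyz2Cre libraries (log2 0.93 ± 0.07, limma adjusted p = 1.85e-09). The difference between these changes was 0.57 ± 0.10 SE (limma adjusted p = 0.00029). In controls the BHLHE40-Fl-labelled libraries had 1.45-fold less (limma adjusted p = 6.42e-06). With LPS the log2 difference was 0.04 (limma adjusted p = 0.68), while equal library totals gave 0.33 (limma adjusted p = 0.000748).

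Slc40a1 differed between labels in opposite directions with and without LPS. It encodes ferroportin, the iron exporter of mammalian cells. The gene (ENSMUSG00000025993, chr1:45908068-45926523, minus strand) stood at 2.3, 4.6 and 2.5 in BHLHE40-Fl-labelled libraries with LPS, from 7 reads in all, against 107.6, 154.7 and 134 in their controls, from 529 reads. In Lyz2Cre libraries it stood at 15.3, 6.9 and 17.1 with LPS, from 27 reads, against 43.1, 30 and 29.3 in controls, from 128 reads. The groups did not overlap: BHLHE40-Fl-labelled controls were the highest and BHLHE40-Fl-labelled libraries with LPS the lowest. The level with LPS was 42.2-fold lower in BHLHE40-Fl-labelled libraries (log2 change -5.04 ± 0.37 SE, limma adjusted p = 1.95e-09) and 2.61-fold lower in Lyz2Cre libraries (-1.38 ± 0.37, limma adjusted p = 0.00451). The difference between these changes was -3.65 ± 0.52 SE (limma adjusted p = 6.14e-05). Between labels Slc40a1 was 3.87-fold higher in BHLHE40-Fl-labelled controls (limma adjusted p = 0.000497) and 4.18-fold lower in LPS libraries labelled BHLHE40-Fl (limma adjusted p = 0.0012). In controls the mesothelial and stromal marker sum, 9002 to 11671 against 1738.5 to 1863, was higher in the same libraries as Slc40a1. With LPS that sum was 9636.5 to 12878 in BHLHE40-Fl-labelled libraries, against 2919 to 4095 in Lyz2Cre libraries, while Slc40a1 was lower.

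Hamp was detected with LPS and at 0 in every control. Hepcidin, its product, is made mainly by hepatocytes and binds ferroportin, which is then degraded. The gene (ENSMUSG00000050440, chr7:30942368-30944032, minus strand) stood at 73.7, 69 and 77.6 in BHLHE40-Fl-labelled libraries with LPS, from 170 reads in all, against 8.3, 6.9 and 1.6 in Lyz2Cre with LPS, from 12 reads. It stood at 0 in all 3 BHLHE40-Fl-labelled controls and all 3 Lyz2Cre controls, which allows group means of up to 0.747 and 0.806 at a floor of 3 reads over the group, counting error only. All 3 BHLHE40-Fl-labelled libraries with LPS lay above the Lyz2Cre libraries with LPS. With LPS Hamp was at least 98.3-fold higher than in controls in BHLHE40-Fl-labelled libraries and at least 6.95-fold higher in Lyz2Cre libraries (limma adjusted p = 7.6e-09 and 0.000378). Between labels with LPS it was 13.1-fold higher in BHLHE40-Fl-labelled libraries (log2 difference 3.69 ± 0.50 SE, limma adjusted p = 1.39e-05). The difference between the changes with LPS was 3.69 (limma adjusted p = 0.0011) and was not called by DESeq2 (adjusted p = 0.0983) or by the edgeR quasi-likelihood test (adjusted p = 1). The 5 hepatocyte markers (Alb, Apoa1, Ttr, Serpina1a and Fgb) summed to 0 in all 3 BHLHE40-Fl-labelled libraries with LPS and to 0 to 1.4 in Lyz2Cre libraries with LPS. The related gene Hamp2 was at 0 in all 12 libraries.

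The 250 bases before the RefSeq start of Hamp are shown because the gene had reads only in libraries with LPS. Motifs were searched on both strands in this window: the STAT-like TTCNNNGAA, which reads the same on both strands, the metal response cores TGCACNC and TGCGCNC, and the E-box CACGTG. Of 32851 promoter windows of this length, 7.02%, 21.4% and 6.02% held these motifs in that order. The Hamp window, in GRCm38.p6 at chr7:30944030-30944279 on the minus strand, held 1 STAT-like match that starts at -97, given in capitals.
Hamp promoter: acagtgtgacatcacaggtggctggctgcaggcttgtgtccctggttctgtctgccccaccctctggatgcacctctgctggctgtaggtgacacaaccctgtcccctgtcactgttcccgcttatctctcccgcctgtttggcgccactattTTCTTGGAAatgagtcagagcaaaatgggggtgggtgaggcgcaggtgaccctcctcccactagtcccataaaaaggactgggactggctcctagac
The table of promoters lists windows for 7 of the 10 genes, namely Slc11a1, Tfrc, Fth1, Ftl1, Hamp, Mt1 and Mt2, and no E-box match was found in them.

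Mt2 rose with LPS under both labels, whereas Mt1 fell with LPS in Lyz2Cre libraries. Metallothioneins are small cysteine-rich proteins that bind zinc and copper, and their genes lie next to each other on chromosome 8. Mt2 (ENSMUSG00000031762, chr8:94172664-94173568, plus strand) stood at 593, 693 and 735 with LPS in BHLHE40-Fl-labelled libraries, against 60.3, 64.7 and 48.6 in their controls. In Lyz2Cre libraries Mt2 stood at 635, 509 and 507 with LPS, against 140.1, 120 and 177 in controls. All libraries with LPS were above all controls, and only the controls separated by label. LPS raised Mt2 11.6-fold in BHLHE40-Fl-labelled libraries (log2 3.52 ± 0.15 SE, limma adjusted p = 1.22e-12) and 3.78-fold in Lyz2Cre libraries (log2 1.92 ± 0.15, limma adjusted p = 7.3e-09). The difference between the changes was 1.60 ± 0.22 SE (limma adjusted p = 3.66e-05). In controls BHLHE40-Fl-labelled libraries had 2.52-fold less Mt2 (limma adjusted p = 2.59e-06). With LPS the log2 difference between labels was 0.29 (limma adjusted p = 0.155), and 0.58 with equal library totals (limma adjusted p = 0.00668).

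Mt1 (ENSMUSG00000031765, chr8:94179082-94180327, plus strand) stood at 975, 1110.1 and 973 with LPS in BHLHE40-Fl-labelled libraries, against 1162.5, 1035 and 1029.7 in their controls. In Lyz2Cre libraries Mt1 stood at 568, 628 and 656 with LPS, against 1130.1, 942 and 1208.5 in controls. The Lyz2Cre libraries with LPS were the lowest 3 of the 12, and the other 3 groups overlapped. LPS lowered Mt1 1.77-fold in Lyz2Cre libraries (log2 change -0.82 ± 0.10 SE, limma adjusted p = 1.2e-06). In BHLHE40-Fl-labelled libraries the change was -0.08 (limma adjusted p = 0.546), and -0.70 with equal library totals (limma adjusted p = 3.56e-06). The difference between the changes was 0.74 ± 0.14 SE (limma adjusted p = 0.000776). With LPS Mt1 was 1.65-fold higher in BHLHE40-Fl-labelled libraries (limma adjusted p = 1.18e-05), and in controls the log2 difference was -0.02 (limma adjusted p = 0.926).

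The ratio of Mt1 to Mt2 within a library was 1.64, 1.60 and 1.32 in BHLHE40-Fl-labelled libraries with LPS, against 19.3, 16.0 and 21.2 in their controls. In Lyz2Cre libraries it was 0.895, 1.23 and 1.29 with LPS, against 8.07, 7.85 and 6.84 in controls. A ratio within a library does not depend on the library factor. The ratios with LPS and in controls did not overlap under either label. The promoter windows of Mt1 and Mt2 are shown with matches to the metal response core in capitals, on either strand. Mt2 (chr8:94172368-94172617 in GRCm38.p6) held 3 matches, at -223, -128 and, on the reverse strand, -50, and Mt1 (chr8:94178839-94179088) held 1, at -23. A Tfrc window also held this core, in overlapping matches on the 2 strands. The Mt2 window ends before the annotated gene start at chr8:94172664, whereas the Mt1 window runs past the annotated start at chr8:94179082. The match counts therefore do not compare the 2 promoters, and bases outside the windows were not searched.
Mt2 promoter: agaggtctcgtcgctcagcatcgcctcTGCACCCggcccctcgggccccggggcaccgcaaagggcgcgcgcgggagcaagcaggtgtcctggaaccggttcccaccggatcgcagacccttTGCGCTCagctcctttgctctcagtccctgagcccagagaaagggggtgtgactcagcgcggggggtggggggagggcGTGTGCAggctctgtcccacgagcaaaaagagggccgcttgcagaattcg
Mt1 promoter: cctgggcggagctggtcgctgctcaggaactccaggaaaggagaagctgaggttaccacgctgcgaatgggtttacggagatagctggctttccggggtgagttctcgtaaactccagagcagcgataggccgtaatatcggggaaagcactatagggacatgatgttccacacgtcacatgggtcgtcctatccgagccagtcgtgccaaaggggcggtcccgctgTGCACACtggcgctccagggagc

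**Figure D3:**
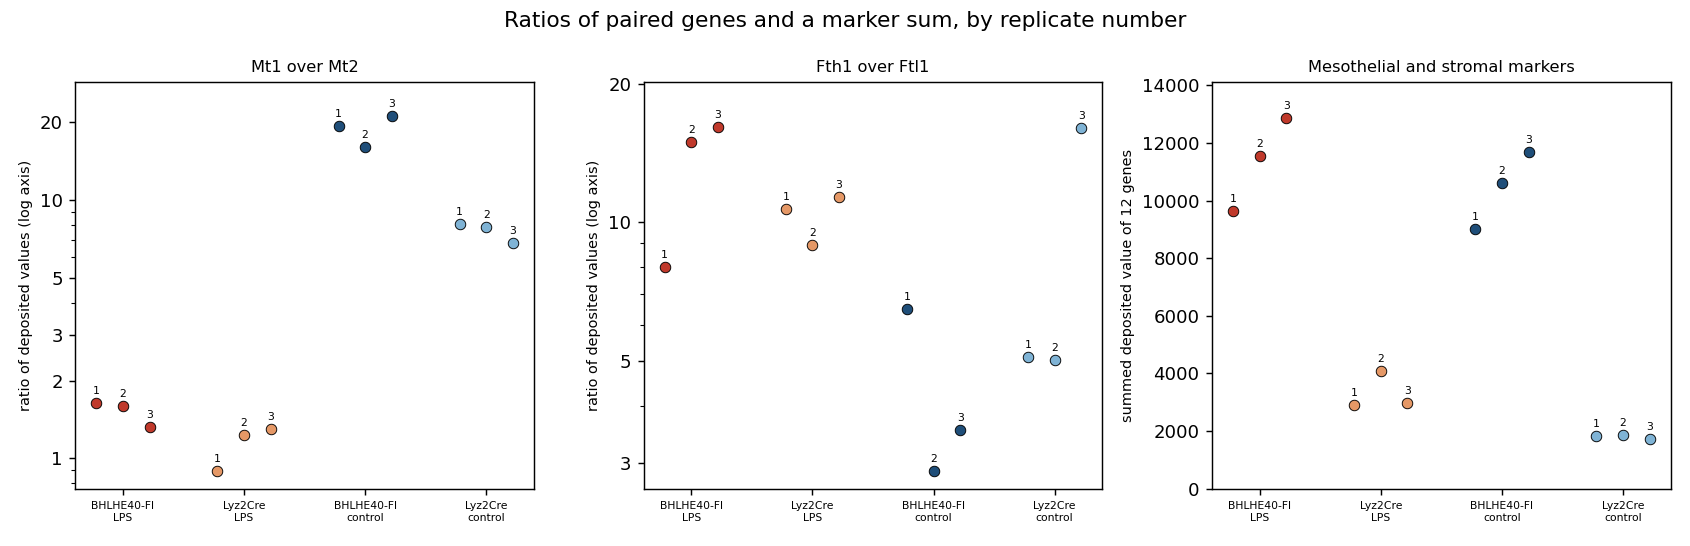
Ratio of Mt1 to Mt2 and of Fth1 to Ftl1 in each library (log axes), and the summed deposited value of 12 mesothelial and stromal markers (linear axis from 0), with points labelled by replicate number. The Mt1 to Mt2 ratio was 0.895 to 1.64 in the 6 libraries with LPS and 6.84 to 21.2 in the 6 controls.

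With LPS Fth1 rose and Ftl1 fell in BHLHE40-Fl-labelled libraries, and neither passed the test in Lyz2Cre libraries as deposited. Fth1 encodes the heavy chain, which oxidises iron as it enters the shell, and Ftl1 the light chain, which helps the iron core to form. Fth1 (ENSMUSG00000024661, chr19:9980598-9985098, plus strand) stood at 82858, 138495 and 138552 with LPS in BHLHE40-Fl-labelled libraries, against 73580, 65576 and 66629 in their controls. In Lyz2Cre libraries Fth1 stood at 167948, 147848 and 173776 with LPS, against 149440, 143837 and 175244 in controls. BHLHE40-Fl-labelled controls were the lowest group, and the Lyz2Cre treatments overlapped. LPS raised Fth1 1.75-fold in BHLHE40-Fl-labelled libraries (log2 0.77 ± 0.16 SE, limma adjusted p = 0.000466). In Lyz2Cre libraries the log2 change was 0.07 (limma adjusted p = 0.774), and -0.66 with equal library totals (limma adjusted p = 0.00106). The rise in BHLHE40-Fl-labelled libraries was 0.15 with equal library totals (limma adjusted p = 0.427). Fth1 was 2.28-fold lower in BHLHE40-Fl-labelled controls than in Lyz2Cre controls (limma adjusted p = 9.96e-06).

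With LPS Fth1 was 1.36-fold lower in BHLHE40-Fl-labelled libraries (log2 difference -0.48 ± 0.16 SE, limma adjusted p = 0.0221). This call was lost with the compared groups alone (limma adjusted p = 0.15), with equal library totals (-0.19, limma adjusted p = 0.36), and without BHLHE40-Fl LPS replicate 1, Lyz2Cre LPS replicate 1 and Lyz2Cre LPS replicate 3 in turn (limma adjusted p = 0.108, 0.0685 and 0.0878). Without BHLHE40-Fl LPS replicate 1 the log2 difference was -0.23. That library had the lowest Fth1 of its group, and mitochondrial transcripts took 0.756% of its reads, against 1.92% and 1.89% in replicates 2 and 3. The part of this in the Fth1 value was not tested. The difference between labels in the change with LPS was 0.70 ± 0.22 SE (limma adjusted p = 0.034). It kept its call when any of 3 libraries was left out and lost it without any of the other 9 (limma adjusted p = 0.0518 to 0.103), which were BHLHE40-Fl control replicates 2 and 3, BHLHE40-Fl LPS replicates 2 and 3, Lyz2Cre control replicates 1 and 3 and all 3 Lyz2Cre LPS replicates. It was also lost with a pseudocount of 0.1 (limma adjusted p = 0.0531).

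Ftl1 (ENSMUSG00000050708, chr7:45457944-45459884, minus strand) stood at 10351.5, 9290.3 and 8624.5 with LPS in BHLHE40-Fl-labelled libraries, against 11369.5, 22774 and 18832.5 in their controls. In Lyz2Cre libraries Ftl1 stood at 15707, 16560.2 and 15301 with LPS, against 29357, 28597 and 10941.5 in controls. BHLHE40-Fl-labelled libraries with LPS were the lowest group, and both control groups were wide, each with a single low library. LPS lowered Ftl1 1.87-fold in BHLHE40-Fl-labelled libraries (log2 change -0.85 ± 0.28 SE, limma adjusted p = 0.0173), and the call was lost without BHLHE40-Fl control replicate 2 or 3 or BHLHE40-Fl LPS replicate 3 (limma adjusted p = 0.0999, 0.0669 and 0.0595). In Lyz2Cre libraries the change was -0.40 (limma adjusted p = 0.265). It was called at -0.87 once Lyz2Cre control replicate 3 was left out (limma adjusted p = 0.000662), at -1.13 with equal library totals (limma adjusted p = 0.00215) and at -0.67 by edgeR (adjusted p = 0.035). Without that library Ftl1 was also lower in BHLHE40-Fl-labelled controls (-0.77, limma adjusted p = 0.00326), against -0.30 with it (limma adjusted p = 0.472). With LPS Ftl1 was 1.68-fold lower in BHLHE40-Fl-labelled libraries (-0.75 ± 0.28 SE, limma adjusted p = 0.0434). That call was lost without any of the 6 libraries with LPS or without BHLHE40-Fl control replicate 3 (limma adjusted p = 0.0579 to 0.126). It was also lost with equal library totals (limma adjusted p = 0.218), with a pseudocount of 0.1, without the filter on low values (limma adjusted p = 0.0699 and 0.0698) and with DESeq2 (adjusted p = 0.0597).

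The ratio of Fth1 to Ftl1 within a library, which does not depend on the library factor, was 8, 14.9 and 16.1 in BHLHE40-Fl-labelled libraries with LPS, against 6.47, 2.88 and 3.54 in their controls. In Lyz2Cre libraries the ratio was 10.7, 8.93 and 11.4 with LPS, against 5.09, 5.03 and 16.0 in controls. The treatments did not overlap under the BHLHE40-Fl label and overlapped under the Lyz2Cre label, where control replicate 3 was the highest.

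In controls, but not in libraries with LPS, low Ftl1 went with the base composition of the library. The 948 genes richest in G and C were lower, against the 948 poorest, by a median log2 deviation of -0.24 in Lyz2Cre control replicate 3 and -0.23 in BHLHE40-Fl control replicate 1, while the other 4 controls had 0.09 to 0.15. These are the same libraries that were low for Ftl1, whose longest protein-coding transcript is 58.1% G and C. With a correction for base composition the Ftl1 calls kept their side of the threshold, and the part of base composition in Ftl1 was otherwise not tested. In BHLHE40-Fl-labelled libraries with LPS the order was the other way round: the deviations were -0.117, 0.00227 and 0.112 in replicates 1 to 3, where Ftl1 was 10351.5, 9290.3 and 8624.5. In Lyz2Cre libraries with LPS the deviations were -0.0101 to 0.0107. Reads from ferritin pseudogenes were few, since Ftl1-ps2 had 6.3 to 20.3 and Fth-ps2 0 to 6.7 over the 12 libraries, but reads that could belong to a copy may have been counted at either.

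**Figure D4:**
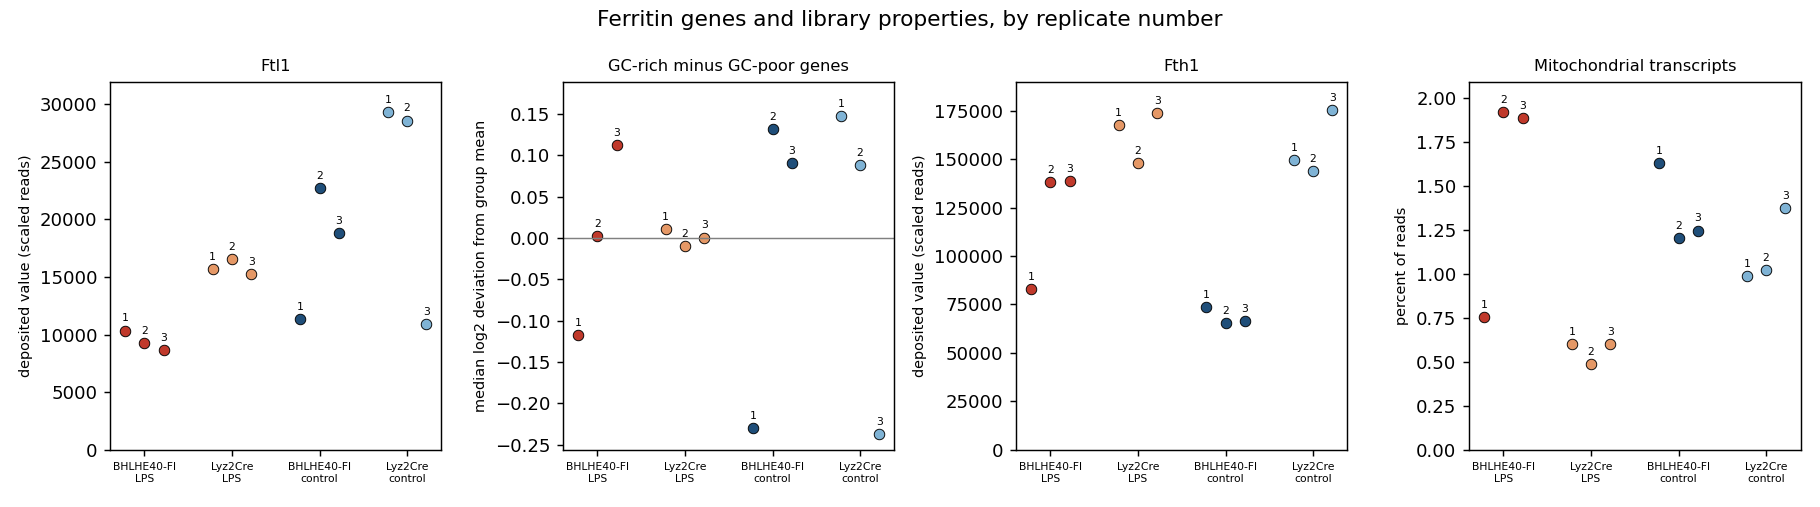
Deposited value of Ftl1 and Fth1 in each library, the median log2 deviation of GC-rich minus GC-poor genes from the group mean, and the percent of reads from mitochondrial transcripts, with points labelled by replicate number. Lyz2Cre control replicate 3 and BHLHE40-Fl control replicate 1 were low for Ftl1 and for GC-rich genes, and BHLHE40-Fl LPS replicate 1 was low for Fth1 and for mitochondrial transcripts.

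The change with LPS differed between labels in 7 of the 10 genes, 5 with a higher and 2 with a lower change in BHLHE40-Fl-labelled libraries, where 9.52% and 9.31% of all tested genes did and 18.8% were called in either direction. The 5 were Slc39a14, Fth1, Hamp, Mt1 and Mt2, and the 2 were Slc11a1 and Slc40a1.

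The wider metal genes numbered 109 in 9 lists by role, of which 107 were in the table and 98 were tested. With LPS 32 rose and 31 fell in BHLHE40-Fl-labelled libraries, and 27 rose and 30 fell in Lyz2Cre libraries. Between labels 22 were higher and 31 lower with LPS in BHLHE40-Fl-labelled libraries, and 23 higher and 27 lower in controls. Their median log2 values lay between -0.05 and -0.01 in these 4 comparisons. The share called was 64.3% and 58.2% for LPS and 54.1% and 51.0% between labels, in the order given, against 50.5%, 48.9%, 37.4% and 31.6% of all genes. Scaled to equal library totals, 16 rose and 57 fell with LPS in BHLHE40-Fl-labelled libraries, and 11 rose and 59 fell in Lyz2Cre libraries. Between labels 38 were then higher and 18 lower with LPS, and 34 higher and 23 lower in controls. The role lists are short and were chosen with earlier results of these data known. Their counts are descriptions beside the shares of all genes by direction: 24.9% higher and 25.6% lower, and 25.0% and 23.9%, for LPS in BHLHE40-Fl-labelled and in Lyz2Cre libraries. The shares for equal library totals are given above.

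Among genes of iron uptake and reduction, 3 of 10 rose and 4 fell with LPS in BHLHE40-Fl-labelled libraries, and 2 rose and 2 fell in Lyz2Cre libraries. These counts became 1 and 5, and 0 and 4, with equal library totals. Steap3, the endosomal reductase that prepares iron for DMT1, fell to 180 ± 24.7 with LPS, against 1923 ± 165 in BHLHE40-Fl-labelled controls (log2 -3.42, limma adjusted p = 2.89e-14), and to 178 ± 12 with LPS, against 1064 ± 126 in Lyz2Cre controls (-2.57, limma adjusted p = 2.17e-12). The direction of Steap3 was opposite to that of Slc11a2. Between labels 4 were higher and 1 lower with LPS in BHLHE40-Fl-labelled libraries, against 17.7% and 19.8% of all genes, and 6 higher and 0 lower in controls, against 15% and 16.6%. With equal library totals 6 were higher and 0 lower with LPS, against 29.9% and 10.8% of all genes. In controls 8 were then higher and 0 lower, against 24.6% and 12.2%. Steap4, a metalloreductase, stood at 882.5 ± 79.2 in BHLHE40-Fl-labelled libraries with LPS, against 15 ± 4.71 in Lyz2Cre with LPS (log2 difference 5.83, limma adjusted p = 1.47e-10), and at 329 ± 17.7 against 7.87 ± 4.14 in controls (5.36, limma adjusted p = 3.25e-10). The mesothelial and stromal markers were higher in the same libraries, and their part in the Steap4 values was not tested. Cybrd1, a ferric reductase of the duodenum, stood at 22.9 ± 2.21 in BHLHE40-Fl-labelled controls, from 92 reads, against 0.567 in Lyz2Cre controls, from 2 reads, and fell to 2.8 with LPS in BHLHE40-Fl-labelled libraries, from 6 reads (log2 4.10 between labels and -3.06 with LPS, limma adjusted p = 9.3e-05 and 0.000835).

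Of 7 tested genes of iron storage, chaperones and export, 2 rose and 1 fell with LPS in BHLHE40-Fl-labelled libraries, and 2 rose and 2 fell in Lyz2Cre libraries. Equal library totals gave 1 rising and 3 falling, and 1 rising and 4 falling. Cp, which encodes the ferroxidase ceruloplasmin that works with ferroportin, rose 6.18-fold in BHLHE40-Fl-labelled libraries (limma adjusted p = 9.24e-13) and 4.09-fold in Lyz2Cre libraries (limma adjusted p = 4.6e-11), while Slc40a1 fell. Ncoa4, the receptor that carries ferritin to the lysosome, stood at 408 ± 28.5 with LPS, against 1402 ± 332 in BHLHE40-Fl-labelled controls (log2 -1.75, limma adjusted p = 3.16e-08). In Lyz2Cre libraries Ncoa4 stood at 723 ± 54.1 with LPS, against 1310 ± 298 in controls (-0.83, limma adjusted p = 0.00022). Between labels Cp was lower in BHLHE40-Fl-labelled controls (-1.32, limma adjusted p = 4.37e-08), and Pcbp3, of the family of iron chaperones, was higher with LPS, at 59 ± 6.67 against 20 ± 7.96 (1.57, limma adjusted p = 0.000249).

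Among genes of heme handling 4 of 20 rose and 11 fell with LPS in BHLHE40-Fl-labelled libraries, against 24.9% and 25.6% of all genes, and 3 rose and 9 fell in Lyz2Cre libraries, against 25.0% and 23.9%. With equal library totals 2 rose and 15 fell in BHLHE40-Fl-labelled libraries, and 1 rose and 16 fell in Lyz2Cre libraries, with the shares of all genes given above for that scaling. Flvcr1, a heme exporter, fell to 1462 ± 47.3 with LPS, against 7308 ± 237 in BHLHE40-Fl-labelled controls, and to 1649 ± 27.1 with LPS, against 6740 ± 224 in Lyz2Cre controls (log2 -2.32 and -2.03, limma adjusted p = 7.11e-16 and 7.37e-15). Between labels 5 were higher and 9 lower with LPS, against 17.7% and 19.8% of all genes, and 4 higher and 7 lower in controls, against 15% and 16.6%. Equal library totals gave 6 higher and 6 lower with LPS, and 6 higher and 7 lower in controls. Hp, which encodes the hemoglobin-binding protein haptoglobin, stood at 152.2 ± 33.3 in BHLHE40-Fl-labelled libraries with LPS, against 10864 ± 806.4 in Lyz2Cre with LPS, and at 34 ± 1.97 against 11634 ± 1215 in controls (log2 differences -6.17 and -8.37, limma adjusted p = 6.61e-16 and 3.02e-18). LPS raised Hp in BHLHE40-Fl-labelled libraries (log2 2.11, limma adjusted p = 5.71e-11), while the change in Lyz2Cre libraries was -0.10 (limma adjusted p = 0.561), and -0.82 with equal library totals (limma adjusted p = 9.56e-06). Spic, a transcription factor of macrophages that clear red blood cells, was lower too on few reads, with 1 read in BHLHE40-Fl-labelled libraries with LPS against 43 in Lyz2Cre with LPS, and 7 against 58 in controls (limma adjusted p = 3.28e-06 and 0.000356). Hmox1, which encodes the heme oxygenase that frees iron from heme, stood at 1783 ± 324 in BHLHE40-Fl-labelled libraries with LPS, against 19247 ± 2110 in Lyz2Cre with LPS. In controls Hmox1 stood at 3793 ± 84.2, against 22897 ± 955. The log2 differences were -3.44 and -2.59 (limma adjusted p = 1.16e-13 and 2.47e-12). Slc48a1, the heme transporter of the phagolysosome, was lower too (-2.01 with LPS and -1.58 in controls, limma adjusted p = 1.38e-11 and 2.57e-10). Bach1, a repressor of Hmox1, was higher in BHLHE40-Fl-labelled controls, at 4737 ± 119 against 2043 ± 121 (log2 difference 1.21, limma adjusted p = 4.3e-11).

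Mitochondrial iron and iron-sulfur cluster genes had 6 of 21 higher and 7 lower with LPS in BHLHE40-Fl-labelled libraries, and 5 higher and 10 lower in Lyz2Cre libraries. Equal library totals gave 3 higher and 16 lower, and 2 higher and 16 lower. The mitochondrial iron importers rose: Slc25a37 stood at 3396 ± 104 with LPS, against 273 ± 26.8 in BHLHE40-Fl-labelled controls, and at 8037 ± 369 with LPS, against 2693 ± 113 in Lyz2Cre controls (log2 3.64 and 1.58, limma adjusted p = 3.61e-17 and 4.54e-12). Between labels Slc25a37 was lower with LPS and in controls (-1.24 and -3.30, limma adjusted p = 4.94e-10 and 7.5e-16). Slc25a28 rose 2.12-fold in BHLHE40-Fl-labelled and 2.31-fold in Lyz2Cre libraries (limma adjusted p = 4.2e-09 and 9.92e-10). Among the 7 tested regulators of iron, 3 rose and 2 fell with LPS in BHLHE40-Fl-labelled libraries, and 2 rose and 2 fell in Lyz2Cre libraries. Under both labels 1 rose and 3 fell with equal library totals. Aco1, which encodes an iron regulatory protein that binds the hairpins shown above, fell by 0.88 and 1.14 on the log2 scale (limma adjusted p = 3.43e-09 and 1.03e-10). Bmp2, a signal that raises hepcidin in liver, stood at 356 ± 14.2 with LPS, against 175 ± 9.82 in BHLHE40-Fl-labelled controls, and at 737 ± 17.6 with LPS, against 50.9 ± 2.71 in Lyz2Cre controls (log2 1.02 and 3.83, limma adjusted p = 2.05e-07 and 3.23e-15). Between labels Bmp2 was lower with LPS and higher in controls (-1.05 and 1.76, limma adjusted p = 3.89e-07 and 3.82e-10).

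Of 4 tested secreted metal-binding defence proteins, 2 rose and 1 fell with LPS in BHLHE40-Fl-labelled libraries, and 1 rose and 0 fell in Lyz2Cre libraries. In Lyz2Cre libraries 0 rose and 1 fell with equal library totals. Between labels 0 were higher and 2 lower with LPS, against 17.7% and 19.8% of all genes, and 1 higher and 2 lower in controls, against 15% and 16.6%. Lcn2 encodes lipocalin 2, which binds the siderophores that bacteria use to gather iron. It stood at 250.4, 314.3 and 296.8 in BHLHE40-Fl-labelled libraries with LPS, against 7760.5, 8023.6 and 8686.3 in Lyz2Cre with LPS. In controls Lcn2 stood at 14.5, 2.4 and 7.2 in BHLHE40-Fl-labelled libraries, against 7639.7, 7940.5 and 6771.8 in Lyz2Cre libraries. The labels did not overlap, and under the Lyz2Cre label the treatments overlapped. The log2 differences between labels were -4.83 and -9.94 (limma adjusted p = 2.22e-09 and 9.41e-14). LPS raised Lcn2 by 5.25 on the log2 scale in BHLHE40-Fl-labelled libraries (limma adjusted p = 1.68e-10), and the change in Lyz2Cre libraries was 0.13 (limma adjusted p = 0.78). S100a8, a subunit of the zinc-binding protein calprotectin, stood at 159 ± 53.7 in BHLHE40-Fl-labelled libraries with LPS, against 932 ± 93.3 in Lyz2Cre with LPS, and at 57.3 ± 13.6 against 573 ± 179 in controls (-2.59 and -3.27, limma adjusted p = 1.32e-07 and 5.21e-09). S100a9, of the same list, had 1 read in BHLHE40-Fl-labelled libraries with LPS and 0 in Lyz2Cre with LPS and in both control groups. The S100a8 values are therefore no measure of calprotectin. With LPS S100a8 rose under both labels (log2 1.44 and 0.75, limma adjusted p = 5.82e-05 and 0.0142), and the call in Lyz2Cre libraries was lost with equal library totals, with the compared groups alone, and when Lyz2Cre control replicate 2 or Lyz2Cre LPS replicate 3 was left out (limma adjusted p = 0.968, 0.0638, 0.104 and 0.0636). The 10 monocyte and neutrophil markers summed to 3838.7 to 4434.3 in BHLHE40-Fl-labelled libraries with LPS, against 3710.1 to 3911.6 in Lyz2Cre with LPS, and to 1393 to 1602.3 against 2147.3 to 2691.9 in controls. Of the 10, Ly6g, a defining neutrophil marker, was at 0 in all 4 groups, while others differed between groups. Elane, Ngp, Cxcr2 and Retnlg were also at 0 in BHLHE40-Fl-labelled libraries with LPS, and Mpo and Elane in Lyz2Cre with LPS. In controls Mpo and Retnlg were also at 0 in BHLHE40-Fl-labelled libraries, and Mpo in Lyz2Cre libraries. With LPS the sums of the 10 markers overlapped between labels, and in controls they were lower under the BHLHE40-Fl label. The part of these markers in the Lcn2 and S100a8 values was not tested.

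Zinc importers of the Slc39 family other than Slc39a14 and Slc39a8 had 5 of 12 higher and 3 lower with LPS in BHLHE40-Fl-labelled libraries, and 3 higher and 3 lower in Lyz2Cre libraries. These counts became 1 higher and 5 lower, and 1 higher and 7 lower, with equal library totals. Slc39a10, a zinc importer of the cell surface, fell in both (log2 -1.35 and -1.30, limma adjusted p = 7.16e-09 and 1.3e-08), against the rise of Slc39a14. Slc39a2, of the same family, rose in both (1.89 and 1.61, limma adjusted p = 9.17e-06 and 5.7e-05). Slc39a4 stood at 22.5 ± 4.45 in BHLHE40-Fl-labelled libraries with LPS, against 272 ± 11.8 in Lyz2Cre with LPS, and at 19.9 ± 5.82 against 329.7 ± 6.19 in controls (log2 differences -3.56 and -4.02, limma adjusted p = 4.24e-10 and 5.98e-11). Of 9 tested zinc exporters and metal sensors, 4 rose and 1 fell with LPS in BHLHE40-Fl-labelled libraries, and 5 rose and 1 fell in Lyz2Cre libraries. When library totals were made equal, 2 rose and 5 fell, and 3 rose and 3 fell. Slc30a1, the zinc exporter of the cell membrane, was higher in BHLHE40-Fl-labelled libraries, at 4734 ± 36.7 against 2577 ± 53.8 with LPS and 4003 ± 81.5 against 1306 ± 36.1 in controls (0.88 and 1.62, limma adjusted p = 1.49e-09 and 2.83e-13). Slc30a4, a zinc transporter of vesicles, rose with LPS in both (1.83 and 1.17, limma adjusted p = 3.33e-13 and 2.32e-10). Mt3, a metallothionein known from brain, had few reads and was lower under the BHLHE40-Fl label, at 5.23 ± 4.91 against 21.4 ± 4.58 with LPS and 3.47 ± 1.01 against 26.9 ± 4.95 in controls (limma adjusted p = 0.00284 and 0.000533). Of 8 copper genes, 3 rose and 1 fell with LPS in BHLHE40-Fl-labelled libraries, and 4 rose and 1 fell in Lyz2Cre libraries. The counts were 3 and 4, and 2 and 5, with equal library totals. Slc31a2, a copper transporter of the endosome and lysosome, rose 8-fold and 5.47-fold (limma adjusted p = 5.1e-15 and 1.27e-13), and the exporter gene Atp7a fell by 0.72 and 0.86 on the log2 scale (limma adjusted p = 4.61e-07 and 4.72e-08). Between labels Slc31a2 was lower with LPS (-0.57, limma adjusted p = 5.83e-05), and the copper importer gene Slc31a1 was lower in BHLHE40-Fl-labelled controls (-1.39, limma adjusted p = 3.85e-09). Slc31a1 rose with LPS under both labels (1.31 and 0.40, limma adjusted p = 2.82e-09 and 0.00246), but with equal library totals it fell in Lyz2Cre libraries (-0.33, limma adjusted p = 0.00754).

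The genes whose log2 level was most like each member over the 12 libraries were found among 9195 genes with a mean of at least 100, as a description only, since all points share 4 groups. The 2 closest genes were Spred1 and Tnfsf15 for Slc11a2 (Pearson r = 0.998 each), Gbp7 and Irf1 for Slc39a14 (0.999 and 0.998), and Arg1 and Parvg for Tfrc (0.994 and 0.992). They were Tatdn2 and Nabp1 for Slc11a1 (0.988 and 0.986), Mfsd7a and Tlr2 for Mt2 (0.992 and 0.991), and Dlst and Rnd1 for Hamp (0.985 and 0.983). Lower values were found for Slc40a1 with Pbx2 and Tecpr1 (0.977 and 0.970), Fth1 with Tgoln1 and Ampd3 (0.979 and 0.956), Ftl1 with Ppp1r12c and Rhbdd3 (0.968 and 0.917), and Mt1 with Utp15 and Dpy30 (0.966 and 0.964).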

How the data were processed

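Total RNA of mouse peritoneal macrophages was sequenced in 12 libraries. Genotype and treatment, as labelled, gave 4 groups with 3 libraries in each. The submitters' processing notes list STAR, Cufflinks, Cuffdiff and the build mm10, with no role or version. No source used here gives the LPS dose and time, the strand setting or the read counter, so antisense and overlapping genes are uncertain. The deposited table holds a signal per gene, judged from its values: whole reads divided by 1 factor per library, to 1 decimal. With a tolerance of 0.06, 100% of the low values checked in each library came out as whole reads, and totals were 20489415 to 29354869. The design had expected another normalized unit, for which the log-scale test would have been the same.

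The 20419 genes that reached a value of 1 in 3 or more libraries were fitted with limma 3.58.1 in R 4.3.3, as log2(value + 1) with a trend, 1 mean per group and all 12 libraries. Log2 changes are on this scale, which understates low genes. Adjusted p-values are Benjamini-Hochberg values over all tested genes, called below 0.05. Folds are ratios of group means, and against a group at 0 they are bounds that take 3 reads in the group as a floor. The difference between labels in the change with LPS is the interaction term. On the recovered reads edgeR 4.0.16 called 10131, 9799, 6999, 6823 and 3765 genes, for LPS in BHLHE40-Fl-labelled and in Lyz2Cre libraries, genotype with and without LPS, and the interaction, and DESeq2 1.42.0 was also run.

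Levels per kilobase use the shortest CCDS-tagged transcript of GENCODE M21, and G and C content is that of the longest protein-coding transcript of each gene. Coordinates are 1-based. Promoter sequences are from RefSeq on GRCm38.p6. The 10 genes, the role lists and the marker lists were chosen with earlier results of these data known. Wider genes were named by a rule: in each list and comparison, up to 4 called genes with the largest changes, groups that did not overlap and a mean of at least 20 in 1 group. Of 149 such cases at least 75 are named, among them the largest change in each list and comparison. For each of the 10 genes, the 2 most correlated genes were named, leaving out gene models and ribosomal, histone and mitochondrial genes.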

Additional observations from a re-analysis of the deposited data

Results flagged for a closer look

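The change with LPS differed between genotype labels, by the interaction term of the limma model, in 7 of the 10 metal genes, against 18.8% of all tested genes. The 10 genes were chosen with earlier results of these data known, so the 2 shares are a description and no test. As the log2 change in BHLHE40-Fl-labelled libraries minus that in Lyz2Cre libraries, the difference was 3.69 for Hamp, 1.60 for Mt2, 0.74 for Mt1, 0.70 for Fth1, 0.57 for Slc39a14, -0.60 for Slc11a1 and -3.65 for Slc40a1. The Hamp value repeats the difference between labels with LPS, because Hamp was at 0 in all 6 controls, and neither edgeR (adjusted p = 1) nor DESeq2 (adjusted p = 0.0983) called it. The Fth1 call was lost with a pseudocount of 0.1 and without any of 9 of the 12 libraries (limma adjusted p up to 0.103). The other 5 genes kept their calls under every alternative run.

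Of the 98 wider genes tested, 13 had a higher and 13 a lower change with LPS in BHLHE40-Fl-labelled libraries by the interaction term. That is 26.5%, against 18.8% of all tested genes, of which 9.52% were higher and 9.31% lower. These lists were also chosen with earlier results known. Among the wider genes named, which were picked from called genes, the same difference between labels passed the limma test for 16. It was 5.11 for Lcn2, 2.21 for Hp, 2.06 for Slc25a37, 0.91 for Slc31a1, 0.66 for Slc30a4, 0.60 for Cp, 0.55 for Slc31a2, 0.28 for Bach1, -0.29 for Flvcr1, -0.44 for Slc48a1, -0.74 for Slc30a1, -0.84 for Steap3, -0.85 for Hmox1, -0.92 for Ncoa4, -2.81 for Bmp2 and -3.001 for Cybrd1. The Cybrd1 call was lost with a pseudocount of 0.1, without the filter on low values, with edgeR, and when any of 7 libraries was left out, namely the 3 BHLHE40-Fl control replicates, BHLHE40-Fl LPS replicate 3, Lyz2Cre control replicates 1 and 2 and Lyz2Cre LPS replicate 1 (limma adjusted p up to 0.0896 for left-out libraries), and DESeq2 gave it no adjusted p.

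The Bach1 call was lost when any of 9 libraries was left out, namely BHLHE40-Fl control replicates 2 and 3, BHLHE40-Fl LPS replicates 2 and 3, Lyz2Cre control replicates 2 and 3 and all 3 Lyz2Cre LPS replicates (limma adjusted p up to 0.0892). The Flvcr1 call was lost without BHLHE40-Fl LPS replicate 2, Lyz2Cre control replicate 1 or Lyz2Cre LPS replicate 2 (limma adjusted p up to 0.0566). The Slc48a1 call was lost without BHLHE40-Fl control replicate 2 or 3, BHLHE40-Fl LPS replicate 2, Lyz2Cre control replicate 3 or Lyz2Cre LPS replicate 1 (limma adjusted p up to 0.0759). The Flvcr1 and Slc48a1 calls were also lost with equal library totals and with edgeR, and the Bach1 call without the filter on low values and with the replicate block.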

How the results depend on the processing

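Of 38 called log2 values of the 10 metal genes, 29 kept their direction and call under all alternatives run: other pseudocounts and filters, median-of-ratios scaling, equal library totals, edgeR, DESeq2, the compared groups alone, the replicate block, each library left out, and a correction for base composition chosen after seeing the data. With equal library totals, limma called 2618 genes higher and 9571 lower, against 5086 and 5234, for LPS in BHLHE40-Fl-labelled libraries, and 2393 and 9499, against 5106 and 4871, for LPS in Lyz2Cre libraries. It called 6200 higher and 2240 lower, against 3610 and 4033, between labels with LPS, and 5111 higher, against 3060, without. Higher genes were 21.5%, 20.1%, 73.5% and 66.9% of these calls, against 49.3%, 51.2%, 47.2% and 47.5%. For the interaction they were 64.0%, and 60.9% with edgeR, against 50.5%. Of the 10 genes, 6 and not 3 then fell with LPS in Lyz2Cre libraries, and 4 were higher and 3 lower between labels with LPS, against 2 and 6. The log2 value turned to -0.66 for Fth1 with LPS in Lyz2Cre libraries, to 0.11 for Slc11a2 and 0.14 for Bhlhe40 between labels with LPS, and to 0.16 for Mt1 between labels in controls, and with LPS in Lyz2Cre libraries to -0.60 for Lcn2 and -0.33 for Slc31a1. With edgeR, which moved the all-gene median for LPS in Lyz2Cre libraries to -0.11, the Fth1 value turned to -0.053, and Ftl1 there was called lower (-0.67, edgeR adjusted p = 0.035). The correction for base composition turned uncalled values to 0.0020 for Mt1 with LPS in BHLHE40-Fl-labelled libraries, 0.063 for Slc11a1 with LPS in Lyz2Cre libraries and -0.0024 for Slc11a2 in the interaction. The cause of these changes was not tested.

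With each library left out in turn, the genes called lower between labels with LPS numbered 3 to 6 of the 10, with 3 when Lyz2Cre LPS replicate 1 or 3 was left out. Uncalled values crossed 0 for Mt1 between labels in controls (-0.12 to 0.058), Slc11a1 with LPS in Lyz2Cre libraries (-0.056 to 0.040), and in the interaction for Ftl1 (-0.74 to 0.019) and Slc11a2 (-0.012 to 0.035). Counts over the role lists, singly or pooled, changed by over 1.5 times, or to or from 0, in 134 of 2280 cases over all alternatives. The cases were not spread evenly, since equal library totals changed most of the counts for LPS by that much. For all lists pooled, 27 rising and 30 falling with LPS in Lyz2Cre libraries then became 11 and 59. Same-numbered libraries correlated by -0.07 to 0.03 in their deviations from the group means over all tested genes. These deviations also hold counting error, so they cannot tell whether replicate numbers pair the samples. The replicate block left 5 of the 10 genes lower between labels with LPS, against 6, because Slc11a2 lost its call (limma adjusted p = 0.0515), and 3528 interaction calls, against 3846. Hamp and Slc40a1 rest on few reads with LPS, which limits the precision of their values.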
